A study of Mus musculus with 9 samples.

Results

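Cholesterol and fatty acid synthesis was followed through 38 genes, listed by symbol and ordered here by role: 18 enzymes of sterol synthesis, 5 genes of the SREBP pathway, 5 genes of the LXR pathway and of cholesterol efflux and its control, 3 genes of intracellular sterol transport and 7 genes of fatty acid synthesis. Of the 38 genes, 34 had a probe with that symbol alone, out of 22180 genes in the whole data set. No value is given for Acat2 and Nr1h2, for which no probe carried the symbol, or for Idi1 and Scd2, which were found only on probes that carry several symbols. For each gene the brightest probe was used. A second and dimmer probe existed for Npc1 and Scap, with log2 fold changes of 0.07 and -0.05 in alphaIRS1KD against control cells.

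The arrays compared alphaIRS1KD, alphaIRS2KD and control cells, with 3 Affymetrix Mouse Gene 2.0 ST arrays of total RNA each. All 3 are stable lines of alpha TC6, a glucagon-secreting mouse cell line, made by lentiviral infection and puromycin selection with a short hairpin RNA against Irs1, against Irs2, or with a nonsilencing hairpin in the control line. The methods describe 1 infected and selected line for each group, and the labels do not say whether its 3 arrays came from separate cultures, so the p-values cover no more than the spread of these arrays. The comparisons ask what knockdown of one or the other insulin receptor substrate does to expression in alpha cells. In bulk RNA, fewer cells of a type and less RNA per cell cannot be told apart.

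Cells make cholesterol from acetyl-CoA through mevalonate, squalene and lanosterol. When sterols are scarce, SCAP carries the SREBP transcription factors out of the endoplasmic reticulum, where INSIG proteins otherwise retain them, and the released factors raise the sterol enzymes (mainly SREBP-2) and the fatty acid enzymes (mainly SREBP-1). When sterols are plentiful, oxysterols activate the LXR receptors, which raise cholesterol exporters and Srebf1 itself. In liver, insulin is known to raise Srebf1 transcription.

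Irs1 and Irs2 were each lowest in their own knockdown line. Irs1 was 1.88-fold lower in alphaIRS1KD and Irs2 was 1.49-fold lower in alphaIRS2KD than in control cells, so both knockdowns were partial in RNA. The part of this unequal depth in the results that follow was not tested. Irs1 had 2 probes, and the brighter is given. Irs1 had a log2 signal of 7.17 ± 0.05 in alphaIRS1KD, 8.09 ± 0.08 in alphaIRS2KD and 8.07 ± 0.02 in control cells (SD, n = 3 each), and Irs2 had 10.07 ± 0.05 in alphaIRS2KD, 10.50 ± 0.06 in alphaIRS1KD and 10.65 ± 0.07 in control cells. All 7 measured alpha-cell markers lay above the array medians of 5.03 to 5.11, with glucagon at 13.2 in every group. These glucagon values lay near the array maxima of 13.53 to 13.61, so they are not evidence of equal glucagon expression. Of the markers of other cell types, by group mean, 3, 4 and 3 of 6 beta-cell genes lay above the array medians in alphaIRS1KD, alphaIRS2KD and control cells (Pdx1, Mafa and Nkx6-1 in all, Iapp in alphaIRS2KD), as did 3, 2 and 1 of 5 stromal and endothelial genes. In each group 2 of 3 delta and PP cell genes (Sst and Ppy), 1 of 3 acinar genes (Cela1), 1 of 4 duct genes (Sox9) and 1 of 4 immune genes (Cd68) lay above them, while Ins2, Prss2, Cftr and Ptprc lay below.

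Some of these markers moved with the groups. Among the alpha-cell markers Irx1, Irx2 and Pax6 were higher in the alphaIRS1KD line than in the control line (log2 fold changes 0.51, 0.39 and 0.32). Ttr was lower in alphaIRS1KD (-0.98). In alphaIRS2KD against control cells Irx1 was called higher too (0.355, adjusted p = 0.024), and Irx2 was not called (0.22, adjusted p = 0.091). The log2 of the summed signal of all 7 was 14.15 to 14.18 in alphaIRS1KD cells. It was 14.30 to 14.31 in alphaIRS2KD and 14.36 to 14.38 in control cells. This sum is of unlogged signals, so the brightest markers, glucagon and Ttr, made up most of it. For the duct genes this sum was 7.04 to 7.10 in alphaIRS1KD, 7.27 to 7.42 in alphaIRS2KD and 7.48 to 7.72 in control cells, with Sox9 as the gene that was called (-0.80 in alphaIRS1KD against control). For the beta-cell genes it was 9.01 to 9.07, 8.97 to 9.10 and 8.94 to 9.00, and for the acinar genes 6.53 to 6.59, 6.57 to 6.76 and 6.50 to 6.56, in the same order. In alphaIRS2KD cells Iapp had log2 signals of 5.11, 6.35 and 6.44, against 4.86, 4.61 and 4.86 in control cells (change 1.19, adjusted p = 0.12), and Ins2 had 4.37, 4.88 and 5.09, against 4.06, 4.23 and 3.90 (0.72, adjusted p = 0.088). All alphaIRS2KD arrays were above all control arrays for both, though neither was called. For the delta and PP genes the sum was 7.03 to 7.08 in alphaIRS1KD, 6.91 to 7.13 in alphaIRS2KD and 6.97 to 7.02 in control cells. The summed signals of the stromal and of the immune list overlapped between the groups. The part of these shifts in the results that follow was not tested.

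A gene is called here when its adjusted p from limma, over all 22180 genes, is under 0.05. The genes were listed with earlier results of these data known. Their shares beside those of all genes therefore describe the list and do not test it. In alphaIRS1KD against control cells 4 of the 34 lipid genes were higher (11.8%, against 2.98% of all genes) and 2 were lower (5.88%, against 3.68% of all genes). Srebf1, Abca1, Abcg1 and Acly rose, and Sqle and Npc2 fell. In alphaIRS2KD against control cells 0 of the 34 genes were called in either direction, where 0.893% of all genes were higher and 0.694% lower. Before adjustment, the same limma fit gave a p under 0.05 for 5 genes on the higher side (14.7%, against 5.53% of all genes) and 2 on the lower side (5.88%, against 5.28% of all genes), so the lower count was near the background. In alphaIRS1KD against alphaIRS2KD cells Abca1 and Mylip were higher (2 of 34 or 5.88%, against 1.71% of all genes) and Sqle and Npc2 were lower (5.88%, against 2.42% of all genes). All called changes were small, between 1.16-fold and 1.35-fold in size, and no member passed 1.5-fold. For 30 of the 34 genes in alphaIRS1KD, and for all 34 in alphaIRS2KD, the 95% interval of the log2 change against control lay within 0.5 of 0 on either side.

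**Figure D1:**
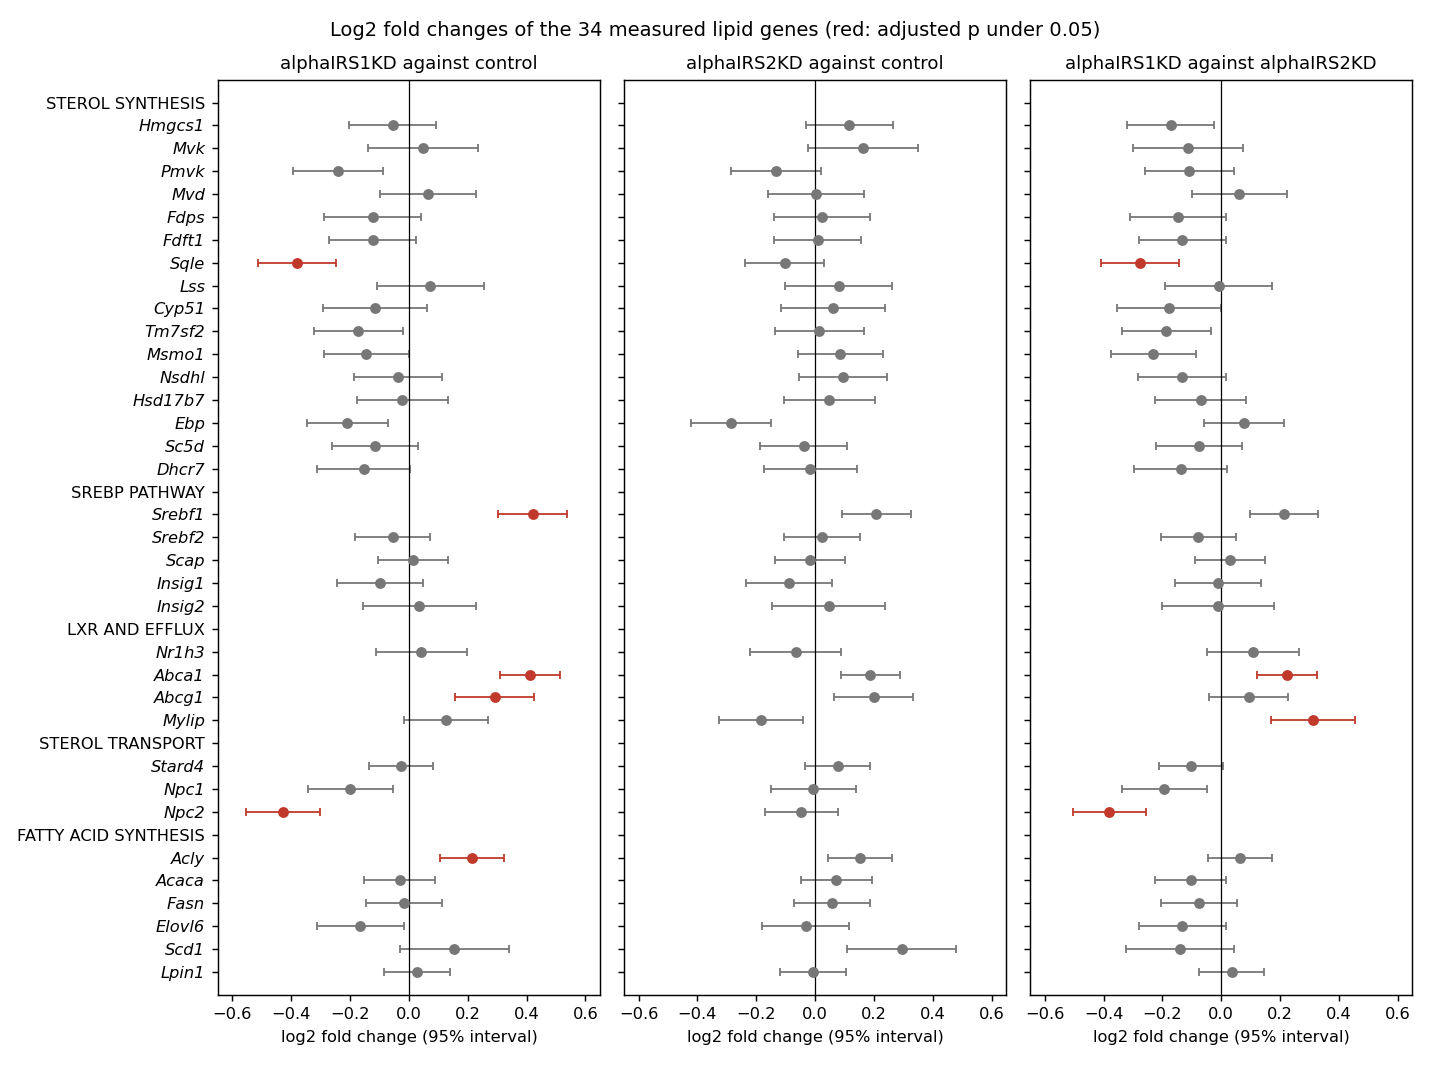
Log2 fold changes of the 34 measured genes with 95% limma intervals (x axis), ordered down the page by role, for each knockdown line against control and for the alphaIRS1KD against the alphaIRS2KD line. Red points have an adjusted p under 0.05. Sterol synthesis genes lie mostly left of 0 in the first and last panels, where 13 and 14 of 16 were negative, and no point is red in the middle panel.

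Sterol synthesis was the largest group and moved little per gene. In alphaIRS1KD against control cells 13 of its 16 measured enzymes had a negative log2 fold change, with a median of -0.119 and a range of -0.38 to 0.07, while 48.1% of all genes were negative and the median of all genes was 0.005. Only Sqle passed the test. Without adjustment, 5 of the 16 had a p under 0.05 on the lower side (31.2%, against 9.13% of all genes) and 0 on the higher side (8.74% of all genes). The enzymes were brighter than the array medians, so all genes are not a background of like signal. In alphaIRS1KD against alphaIRS2KD cells 14 of 16 were negative, with a median of -0.132, and Sqle was again the 1 gene called. In alphaIRS2KD against control cells 11 of 16 were positive, with a median of 0.019. These 3 comparisons share their arrays pairwise, so their counts are not independent of each other. The enzymes also tended to move together from array to array, as given below. The 16 are therefore not independent of each other, and the sign counts are descriptive.

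Sqle encodes squalene epoxidase, which adds the oxygen that allows squalene to be folded into a sterol (chr15:59315092-59331193, GRCm38.p6). Its log2 signals were 8.99, 8.97 and 9.02 on the alphaIRS1KD arrays, 9.35, 9.28 and 9.19 on the alphaIRS2KD arrays and 9.45, 9.33 and 9.34 on the control arrays. The alphaIRS1KD arrays were all below the other 6, and the alphaIRS2KD and control arrays overlapped. Sqle was 1.30-fold lower in the alphaIRS1KD line than in the control line (log2 change -0.38, SE 0.06, adjusted p = 0.0051) and 1.21-fold lower than in alphaIRS2KD cells (-0.28, SE 0.06, adjusted p = 0.035). Its change in alphaIRS2KD against control cells was -0.10 (adjusted p = 0.60). The difference between the knockdown lines lost its call without any 1 of control replicates 2 and 3, the 3 alphaIRS1KD replicates and alphaIRS2KD replicates 1 and 2, with adjusted p up to 0.143 over all settings tried.

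No other sterol enzyme was called. The nearest were Pmvk, the phosphomevalonate kinase of the mevalonate pathway, and Ebp, the isomerase that shifts the double bond of the sterol nucleus. Pmvk had log2 signals of 8.04, 8.02 and 8.12 in alphaIRS1KD, 8.21, 8.11 and 8.18 in alphaIRS2KD and 8.32, 8.18 and 8.40 in control cells, and its change in alphaIRS1KD against control was -0.24 (adjusted p = 0.074). Ebp was the 1 enzyme whose arrays lay below all control arrays in both lines. It had log2 signals of 8.91, 8.94 and 9.02 in alphaIRS1KD, 8.87, 8.94 and 8.83 in alphaIRS2KD and 9.25, 9.08 and 9.17 in control cells. Its log2 fold changes against control were -0.21 in alphaIRS1KD (adjusted p = 0.086) and -0.29 in alphaIRS2KD cells (adjusted p = 0.063).

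In 8 of the 16 enzymes all alphaIRS1KD arrays lay below all control arrays, and in none above (13.0% of all genes lay wholly below and 12.4% wholly above). Besides Sqle, Pmvk and Ebp these were Fdps and Fdft1, which build farnesyl diphosphate and squalene, Cyp51 and Msmo1, which remove the methyl groups of lanosterol, and Dhcr7, which carries out a last reduction to cholesterol. The log2 changes of these last 5 were between -0.15 and -0.11 and did not pass the test (adjusted p = 0.28 to 0.52). Tm7sf2, a sterol reductase, was at -0.17 with overlapping arrays (adjusted p = 0.21). Sc5d, Hmgcs1, Nsdhl and Hsd17b7 had changes of -0.11 to -0.02, and Mvk, Mvd and Lss had changes of 0.05 to 0.07.

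Hmgcs1 makes the HMG-CoA from which mevalonate is formed and is a textbook target of SREBP-2. Its log2 signals were 9.71, 9.67 and 9.76 in alphaIRS1KD, 9.92, 9.97 and 9.76 in alphaIRS2KD and 9.82, 9.76 and 9.72 in control cells. Replicates 1 and 2 of alphaIRS2KD were above all control arrays and replicate 3 was not. The change in alphaIRS1KD against alphaIRS2KD cells was -0.17 (adjusted p = 0.24).

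That split within alphaIRS2KD ran through the group. Replicate 3 was the lowest of the 3 alphaIRS2KD arrays for 15 of the 16 sterol enzymes (93.8%) and for 30 of all 34 lipid genes (88.2%), against 39.2% of all genes. The median deviation of the 16 enzymes from their control means was -0.148, -0.096 and -0.087 on the alphaIRS1KD arrays, 0.052, 0.088 and -0.071 on the alphaIRS2KD arrays, and 0.049, -0.005 and -0.032 on the control arrays. By this median the 3 alphaIRS1KD arrays were the lowest of the 9, with alphaIRS2KD replicate 3 next to them. By the mean over the 16 enzymes alphaIRS2KD replicate 3 (-0.086) lay level with alphaIRS1KD replicate 3 (-0.084). Over all genes the median deviation of alphaIRS2KD replicate 3 was -0.004. Within the control arrays replicate 1 was the highest for 11 of the 16 enzymes.

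**Figure D2:**
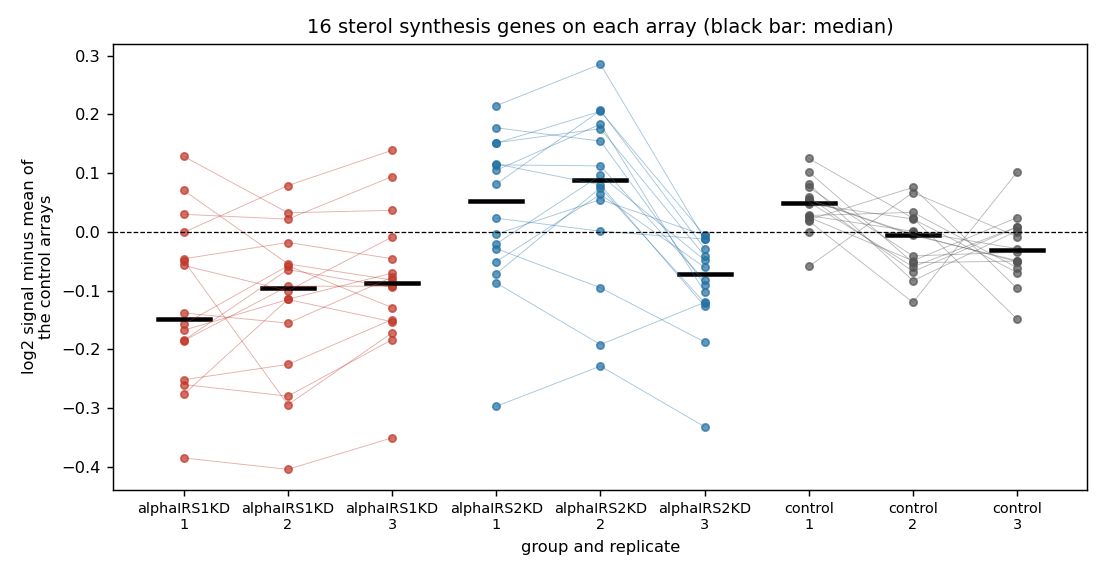
Log2 signal of the 16 sterol synthesis enzymes minus each gene's control mean (y axis) on each of the 9 arrays (x axis), with thin lines joining a gene across the replicates of a group and a black bar at the median. The medians of the alphaIRS1KD arrays are -0.148 to -0.087, and that of alphaIRS2KD replicate 3 is -0.071, below its group's other arrays at 0.052 and 0.088.

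Replicate 3 was singled out because these same genes were low on it. Leaving it out therefore raises their alphaIRS2KD means by construction, so the values that follow show its weight and are not further support. Without alphaIRS2KD replicate 3, the alphaIRS2KD line had 13 of 16 positive changes against control with a median of 0.068, and still 0 lipid genes called in either direction. Against alphaIRS2KD without that array, 14 of 16 enzymes were lower in sign in alphaIRS1KD cells and the median was -0.179. Msmo1 then passed the test too (-0.29, adjusted p = 0.028), and Sqle and Npc2 stayed called, so that 3 of the 34 genes were lower (3.39% of all genes in that fit). Mylip lost its call (adjusted p = 0.051).

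Promoter windows, from 250 bases before to 50 bases after the start, were matched in RefSeq (GRCm38.p6) for 30 of the 38 genes, in 39 windows. The start used is not always the outer end of the gene. The Acaca window (chr11:84195188-84195487) and the Lpin1 window (chr12:16610917-16611216) lie inside the genes (chr11:84129635-84401651 and chr12:16535669-16653903). A window without a match therefore says nothing about other starts of its gene. They were searched on both strands for TCACNCCAC, a core of the sterol regulatory element that SREBPs bind, and for CCAAT, the box bound by NF-Y, a known partner of SREBPs. A match of one can share no more than 1 base with a match of the other. TCACNCCAC was found in 1 of the 39 windows (2.56%), that of Hmgcs1, and in 1.24% of all 32851 windows. CCAAT was found in 14 of the 18 windows of the sterol enzymes (77.8%), belonging to 14 of 15 enzymes with a window, in 5 of the 10 windows of the SREBP pathway, in 2 of the 5 of the fatty acid genes (40.0%), and in 1 of the 5 LXR and efflux windows (20.0%). Over all members it was in 23 of 39 windows (59.0%), against 37.4% of all windows. The 5 LXR and efflux windows are 3 of the receptors Nr1h2 and Nr1h3, that of Abca1, and that of Mylip, which holds 3 CCAAT boxes, so LXR targets were not alike in this. The windows that follow are examples with and without matches. Hmgcs1 and Msmo1 are sterol enzymes, Npc2 is the gene with the largest fall of the 34, and Abca1 is an LXR target that was chosen because its window holds neither motif. Capitals mark the matches, where ATTGG is CCAAT read on the other strand. The windows lie on GRCm38.p6 at chr13:119690101-119690400 (plus strand) for Hmgcs1, chr8:64733529-64733828 (minus strand) for Msmo1, chr12:84773063-84773362 (minus strand) for Npc2 and chr4:53159846-53160145 (minus strand) for Abca1.
Hmgcs1: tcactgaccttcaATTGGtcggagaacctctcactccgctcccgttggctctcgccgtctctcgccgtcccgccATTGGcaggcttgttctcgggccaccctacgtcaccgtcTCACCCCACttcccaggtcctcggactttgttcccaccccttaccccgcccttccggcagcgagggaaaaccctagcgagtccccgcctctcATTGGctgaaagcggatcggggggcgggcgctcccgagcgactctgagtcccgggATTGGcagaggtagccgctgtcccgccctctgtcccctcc
Msmo1: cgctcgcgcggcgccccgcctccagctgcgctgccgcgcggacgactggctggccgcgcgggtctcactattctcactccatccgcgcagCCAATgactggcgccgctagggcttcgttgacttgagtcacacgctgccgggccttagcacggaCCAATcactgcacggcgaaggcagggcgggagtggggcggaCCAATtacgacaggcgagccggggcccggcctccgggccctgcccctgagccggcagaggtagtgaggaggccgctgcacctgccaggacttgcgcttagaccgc
Npc2: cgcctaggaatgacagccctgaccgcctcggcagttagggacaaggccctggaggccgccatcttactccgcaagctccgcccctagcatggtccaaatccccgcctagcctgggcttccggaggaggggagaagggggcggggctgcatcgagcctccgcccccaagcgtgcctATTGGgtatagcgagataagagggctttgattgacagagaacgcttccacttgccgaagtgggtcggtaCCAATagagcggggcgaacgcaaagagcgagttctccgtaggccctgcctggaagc
Abca1: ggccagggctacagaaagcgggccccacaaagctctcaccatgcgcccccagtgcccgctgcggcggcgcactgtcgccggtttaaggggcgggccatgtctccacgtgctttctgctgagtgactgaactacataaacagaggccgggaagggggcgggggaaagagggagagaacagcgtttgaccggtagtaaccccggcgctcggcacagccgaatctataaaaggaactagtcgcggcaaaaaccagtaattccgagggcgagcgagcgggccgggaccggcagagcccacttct
The Hmgcs1 window holds TCACNCCAC at -137 from the start and 4 CCAAT boxes, the Msmo1 window 3 CCAAT boxes and the Npc2 window 2. A match is a description of the letters in the window and not evidence of a bound site. Fdps, Fdft1, Sqle, Abcg1, Stard4, Npc1, Scd1 and Scd2 had no entry.

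In the SREBP pathway Srebf1 rose and its partners did not pass the test. Srebf1 encodes SREBP-1, the family member that mainly serves fatty acid synthesis (chr11:60199084-60224186, GRCm38.p6). The arrays read log2 signals of 7.17, 7.24 and 7.24 in alphaIRS1KD, 7.03, 7.04 and 6.94 in alphaIRS2KD and 6.82, 6.75 and 6.82 in control cells. The groups did not overlap, with alphaIRS2KD between the other two. Srebf1 was 1.34-fold higher in the alphaIRS1KD line than in the control line (log2 change 0.42, SE 0.05, adjusted p = 0.0014). The change was 0.21 in alphaIRS2KD against control (adjusted p = 0.12) and 0.21 in alphaIRS1KD against alphaIRS2KD cells (adjusted p = 0.060), neither of which passed. The probe does not tell the transcript forms of Srebf1 apart.

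Srebf2, which encodes the sterol-directed SREBP-2, had a change of -0.06 in alphaIRS1KD (95% interval -0.18 to 0.07) and 0.02 in alphaIRS2KD against control cells (-0.10 to 0.15). The sterol sensor Scap had 0.01 and -0.02, the retention factor Insig1 had -0.10 and -0.09, and Insig2 had 0.04 and 0.05 in the same order of comparisons. Insig1, itself a textbook SREBP target, had log2 signals of 10.20, 10.15 and 10.13 in alphaIRS1KD, 10.20, 10.24 and 10.06 in alphaIRS2KD and 10.34, 10.20 and 10.23 in control cells, with overlapping groups.

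Abca1 and Abcg1, cholesterol exporters and textbook LXR targets, rose in alphaIRS1KD cells. They were the 2 genes called higher among the 4 measured in the LXR and efflux group, against 2.98% of all genes, while Mylip and Nr1h3 did not pass. All 4 had a positive change in alphaIRS1KD against control, and the median was 0.21. In 3 of the 4 the alphaIRS1KD arrays lay above all control arrays, as they did for 12.4% of all genes. In alphaIRS2KD against control cells 2 were positive and 2 negative, with none called. The further LXR and efflux genes described last did not share this direction. In alphaIRS1KD against control cells 0 of 8 were higher and 2 lower (2.98% and 3.68% of all genes), with a median of 0.009.

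Abca1, the transporter that hands cholesterol to lipid-poor apolipoprotein A-I, lies at chr4:53030789-53159988 (GRCm38.p6). Its log2 signals were 8.54, 8.48 and 8.48 in alphaIRS1KD, 8.27, 8.27 and 8.28 in alphaIRS2KD and 8.12, 8.07 and 8.08 in control cells. The 3 groups were fully separate, in that order. Abca1 was 1.33-fold higher in the alphaIRS1KD line than in the control line (log2 change 0.41, SE 0.04, adjusted p = 0.00075) and 1.17-fold higher than in alphaIRS2KD cells (0.22, SE 0.04, adjusted p = 0.026). Its change in alphaIRS2KD against control was 0.19 (adjusted p = 0.10), with all arrays above control. The study placed Abca1 in a gene list it selected on these arrays, so its direction here is not independent evidence. The difference between the knockdown lines was not called without control replicate 2, alphaIRS2KD replicate 1 or 2, or any 1 of the alphaIRS1KD replicates, and its adjusted p reached 0.0966 over the settings tried.

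Abcg1, a transporter that moves cholesterol to lipoprotein particles that already hold lipid (chr17:31057694-31117984, GRCm38.p6), followed the same order. The log2 signals of Abcg1 were 7.38, 7.31 and 7.33 in alphaIRS1KD, 7.24, 7.30 and 7.19 in alphaIRS2KD and 7.10, 7.09 and 6.95 in control cells. Both knockdown lines lay wholly above control, and the highest alphaIRS2KD array lay next to the lowest alphaIRS1KD array. Abcg1 was 1.22-fold higher in the alphaIRS1KD line than in the control line (log2 change 0.29, SE 0.06, adjusted p = 0.019), and its change in alphaIRS2KD was 0.20 (adjusted p = 0.21). The difference between the lines was 0.09, with a 95% interval of -0.04 to 0.23 (adjusted p = 0.51). The call against control was lost without control replicate 3 or any 1 of the 3 alphaIRS1KD replicates (adjusted p up to 0.0839 over all settings tried).

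Mylip, a ubiquitin ligase that marks lipoprotein receptors for degradation and a textbook LXR target (chr13:45389742-45411940, GRCm38.p6), parted the knockdown lines in opposite directions. The log2 signals of Mylip were 8.99, 9.08 and 9.03 in alphaIRS1KD, 8.84, 8.69 and 8.63 in alphaIRS2KD and 8.90, 8.88 and 8.94 in control cells. All alphaIRS1KD arrays lay above control and all alphaIRS2KD arrays below. Neither change against control passed the test (0.13 with adjusted p = 0.35 in alphaIRS1KD, and -0.18 with adjusted p = 0.29 in alphaIRS2KD). Mylip was 1.24-fold higher in alphaIRS1KD than in alphaIRS2KD cells (0.31, SE 0.06, adjusted p = 0.027). That call was kept without control replicate 3 or alphaIRS2KD replicate 1 and lost without any 1 of the other 7 arrays, namely control replicates 1 and 2, all 3 of alphaIRS1KD, and alphaIRS2KD replicates 2 and 3 (adjusted p up to 0.204 over all settings tried). Nr1h3, which encodes LXR alpha, had changes of 0.04 in alphaIRS1KD and -0.07 in alphaIRS2KD against control (adjusted p = 0.82 and 0.80).

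**Figure D3:**
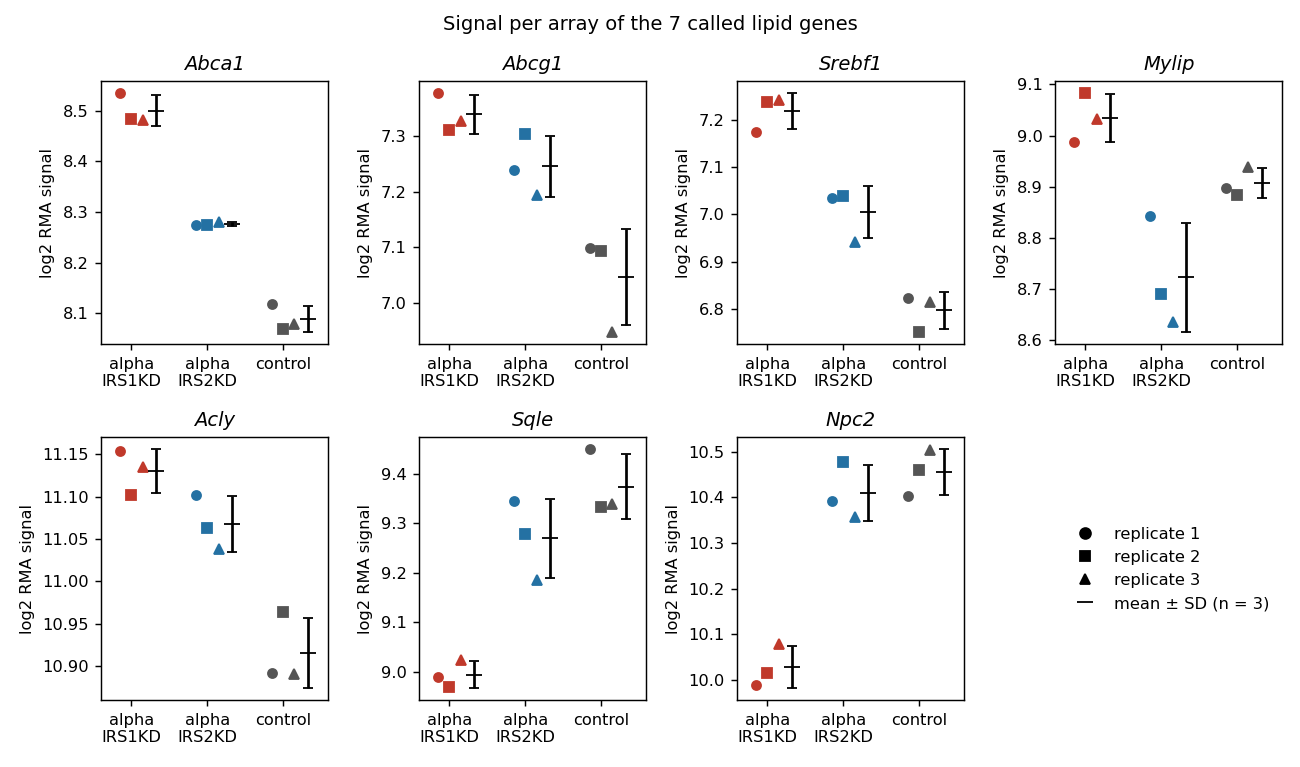
Log2 RMA signal (y axis, scaled for each gene and not starting at 0) on each array of the 7 genes called in at least 1 comparison, with alphaIRS1KD in red, alphaIRS2KD in blue and control in grey, and the mean ± SD of 3 arrays beside each group. Abca1, Srebf1 and Abcg1 are ordered alphaIRS1KD, alphaIRS2KD, control. Sqle and Npc2 are lowest on the alphaIRS1KD arrays, and Mylip lies above control in alphaIRS1KD and below it in alphaIRS2KD.

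Among the sterol transport genes Npc2 fell. Npc2 is the soluble lysosomal protein that passes cholesterol to the membrane protein NPC1, which exports it from the lysosome (Npc2 lies at chr12:84754559-84773112, GRCm38.p6). Its log2 signals were 9.99, 10.02 and 10.08 in alphaIRS1KD, 10.39, 10.48 and 10.36 in alphaIRS2KD and 10.40, 10.46 and 10.50 in control cells. The alphaIRS1KD arrays were set apart from the other 6, which overlapped. Npc2 was 1.35-fold lower in the alphaIRS1KD line than in the control line (log2 change -0.43, SE 0.05, adjusted p = 0.0018) and 1.30-fold lower than in alphaIRS2KD cells (-0.38, SE 0.05, adjusted p = 0.0052). Its change in alphaIRS2KD against control was -0.05, with a 95% interval of -0.17 to 0.08 (adjusted p = 0.83).

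Npc1 had log2 signals of 8.22, 8.30 and 8.37 in alphaIRS1KD, 8.45, 8.60 and 8.41 in alphaIRS2KD and 8.49, 8.49 and 8.51 in control cells. Its alphaIRS1KD arrays were below all others, with a change of -0.20 against control (adjusted p = 0.12), and its dimmer probe gave 0.07. Stard4, a cytosolic sterol carrier, had changes of -0.03 in alphaIRS1KD and 0.08 in alphaIRS2KD against control (adjusted p = 0.84 and 0.64).

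The fatty acid genes did not follow Srebf1 as a group. In alphaIRS1KD against control cells 3 of the 6 measured genes were positive and 3 negative, with a median of 0.005 and a range of -0.17 to 0.22, and 1 was called. That gene was Acly, the ATP citrate lyase that supplies cytosolic acetyl-CoA to fatty acid and sterol synthesis alike (chr11:100476352-100528000, GRCm38.p6). Acly had log2 signals of 11.15, 11.10 and 11.13 in alphaIRS1KD, 11.10, 11.06 and 11.04 in alphaIRS2KD and 10.89, 10.96 and 10.89 in control cells. Both knockdown lines lay wholly above control. Acly was 1.16-fold higher in the alphaIRS1KD line than in the control line (log2 change 0.22, SE 0.05, adjusted p = 0.030), and its change in alphaIRS2KD was 0.15 (adjusted p = 0.24). The 2 lines differed by 0.06, with a 95% interval of -0.05 to 0.17 (adjusted p = 0.60). The call against control was lost in 6 of the 9 fits that each left out 1 array, those without any 1 of the control replicates or any 1 of the alphaIRS1KD replicates, with adjusted p up to 0.105 over all settings tried.

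Scd1, the desaturase that makes oleate from stearate, had log2 signals of 8.97, 9.11 and 9.05 in alphaIRS1KD, 9.24, 9.25 and 9.07 in alphaIRS2KD and 9.00, 8.92 and 8.75 in control cells. Its alphaIRS2KD arrays were all above control (0.29, adjusted p = 0.17), and its alphaIRS1KD arrays overlapped with control (0.15, adjusted p = 0.39). Fasn, the fatty acid synthase, and Acaca, the acetyl-CoA carboxylase that feeds it, had changes of -0.02 and -0.03 in alphaIRS1KD and of 0.06 and 0.07 in alphaIRS2KD against control. The Fasn intervals were -0.15 to 0.11 in alphaIRS1KD and -0.07 to 0.19 in alphaIRS2KD. Elovl6, an elongase of saturated chains, was at -0.17 in alphaIRS1KD (adjusted p = 0.22) with all arrays below control, and Lpin1, a phosphatidate phosphatase, was at 0.03 (adjusted p = 0.84).

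Over the 34 genes, arrays did not overlap in 5 genes higher and 11 lower in alphaIRS1KD against control cells (12.4% and 13.0% of all genes). In alphaIRS2KD against control cells 6 genes were wholly higher and 3 wholly lower (6.94% and 6.80% of all genes), and in alphaIRS1KD against alphaIRS2KD cells 5 were wholly higher and 10 wholly lower (8.92% and 9.49% of all genes). The median log2 fold change of the 34 genes was -0.034 in alphaIRS1KD and 0.023 in alphaIRS2KD against control, and -0.091 between the knockdown lines, where the medians of all genes were 0.005, -0.003 and 0.008. The 34 genes were bright, all above the array medians, and their median SD within a group was 0.073, against 0.104 for all genes.

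A further list of 53 genes of the same pathways, of which 45 were measured, held larger single changes. It too was chosen with earlier results of these data known, so its shares are a description and not a test. In alphaIRS1KD against control cells 1 of the 45 was higher (2.22%, against 2.98% of all genes) and 5 were lower (11.1%, against 3.68%). Between alphaIRS2KD and control cells 1 was higher and 1 lower in alphaIRS2KD (2.22% each, against 0.893% and 0.694% of all genes). In alphaIRS1KD against alphaIRS2KD cells 1 was higher (2.22%, against 1.71%) and 4 were lower (8.89%, against 2.42%). The medians of the list were 0.027, 0.035 and -0.023.

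Mlxipl encodes ChREBP, a glucose-responsive factor that acts beside SREBP-1 on fatty acid enzymes in liver, and it was the 1 gene of both lists called in all 3 comparisons. Mlxipl had log2 signals of 7.24, 7.20 and 7.16 in alphaIRS1KD, 6.87, 6.86 and 6.92 in alphaIRS2KD and 6.12, 6.26 and 6.18 in control cells. The groups were fully separate in the same order as Srebf1 and Abca1. Mlxipl was 2.01-fold higher in the alphaIRS1KD line than in the control line (log2 change 1.01, SE 0.05, adjusted p = 1.4e-05), 1.62-fold higher in alphaIRS2KD than in control cells (0.69, SE 0.05, adjusted p = 0.00059) and 1.25-fold higher in alphaIRS1KD than in alphaIRS2KD cells (0.32, adjusted p = 0.012). The last of these calls was lost in 2 of the 9 fits that left out 1 array, those without alphaIRS1KD replicate 1 or alphaIRS1KD replicate 2 (adjusted p up to 0.0588 over all settings tried), and the other calls were kept in every setting tried.

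The genes of this list that were lower in alphaIRS1KD sat at several steps. Erlin1, an endoplasmic reticulum protein known to take part in SREBP control, had log2 signals of 7.82, 8.01 and 7.91 in alphaIRS1KD, 8.65, 8.81 and 8.49 in alphaIRS2KD and 8.53, 8.56 and 8.55 in control cells. It was 1.55-fold lower in the alphaIRS1KD line than in the control line (log2 change -0.63, adjusted p = 0.0022) and 1.67-fold lower than in alphaIRS2KD cells (-0.74, adjusted p = 0.0015). Lipa, the lysosomal acid lipase that frees cholesterol from its esters upstream of NPC2, had 6.68, 6.67 and 6.77 in alphaIRS1KD, 7.23, 7.35 and 7.12 in alphaIRS2KD and 7.12, 7.14 and 7.33 in control cells. It was 1.41-fold lower in the alphaIRS1KD line than in the control line (log2 change -0.49, adjusted p = 0.0062) and 1.44-fold lower than in alphaIRS2KD cells (-0.53, adjusted p = 0.0065).

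Slc25a1, the mitochondrial carrier that exports the citrate on which ACLY acts, was lower in alphaIRS1KD cells while Acly was higher. Slc25a1 had log2 signals of 9.11, 9.06 and 9.13 in alphaIRS1KD, 9.54, 9.54 and 9.45 in alphaIRS2KD and 9.58, 9.45 and 9.52 in control cells (1.34-fold lower than in control, -0.42, adjusted p = 0.0019, and -0.41 against alphaIRS2KD, adjusted p = 0.0034). Cyp7b1, an oxysterol hydroxylase that clears LXR ligands, was at -0.43 against control (adjusted p = 0.038) and -0.52 against alphaIRS2KD (adjusted p = 0.022). Its alphaIRS1KD arrays were 6.49, 6.32 and 6.41, against 6.89, 7.16 and 6.74 in alphaIRS2KD and 6.78, 6.83 and 6.89 in control cells. The Cyp7b1 calls were lost in 7 of the 9 fits against control and 4 of the 9 against alphaIRS2KD that left out 1 array, namely any 1 of the control and alphaIRS1KD arrays or alphaIRS2KD replicate 1 in the first comparison, and any 1 of the alphaIRS1KD arrays or alphaIRS2KD replicate 1 in the second (adjusted p up to 0.137 and 0.257 over all settings tried). Abcg4, a transporter related to ABCG1, was at -0.56 in alphaIRS1KD against control (adjusted p = 0.021), with 5.71, 5.57 and 5.30 in alphaIRS1KD, 5.97, 6.02 and 6.00 in alphaIRS2KD and 6.30, 6.00 and 5.97 in control cells. That call was lost without control replicate 1, alphaIRS1KD replicate 2 or alphaIRS1KD replicate 3 (adjusted p up to 0.197 over all settings tried).

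In alphaIRS2KD cells the 1 gene of this list that was lower than in control was Gpam, the acyltransferase that opens glycerolipid synthesis. Gpam had log2 signals of 8.48, 8.47 and 8.40 in alphaIRS1KD, 8.37, 8.26 and 8.32 in alphaIRS2KD and 8.63, 8.57 and 8.61 in control cells, and both knockdown lines lay wholly below control. It was 1.22-fold lower in alphaIRS2KD than in control cells (-0.29, adjusted p = 0.032), and that call was lost when any 1 of the 9 arrays was left out. Its change in alphaIRS1KD was -0.15 (adjusted p = 0.15).

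**Figure D4:**
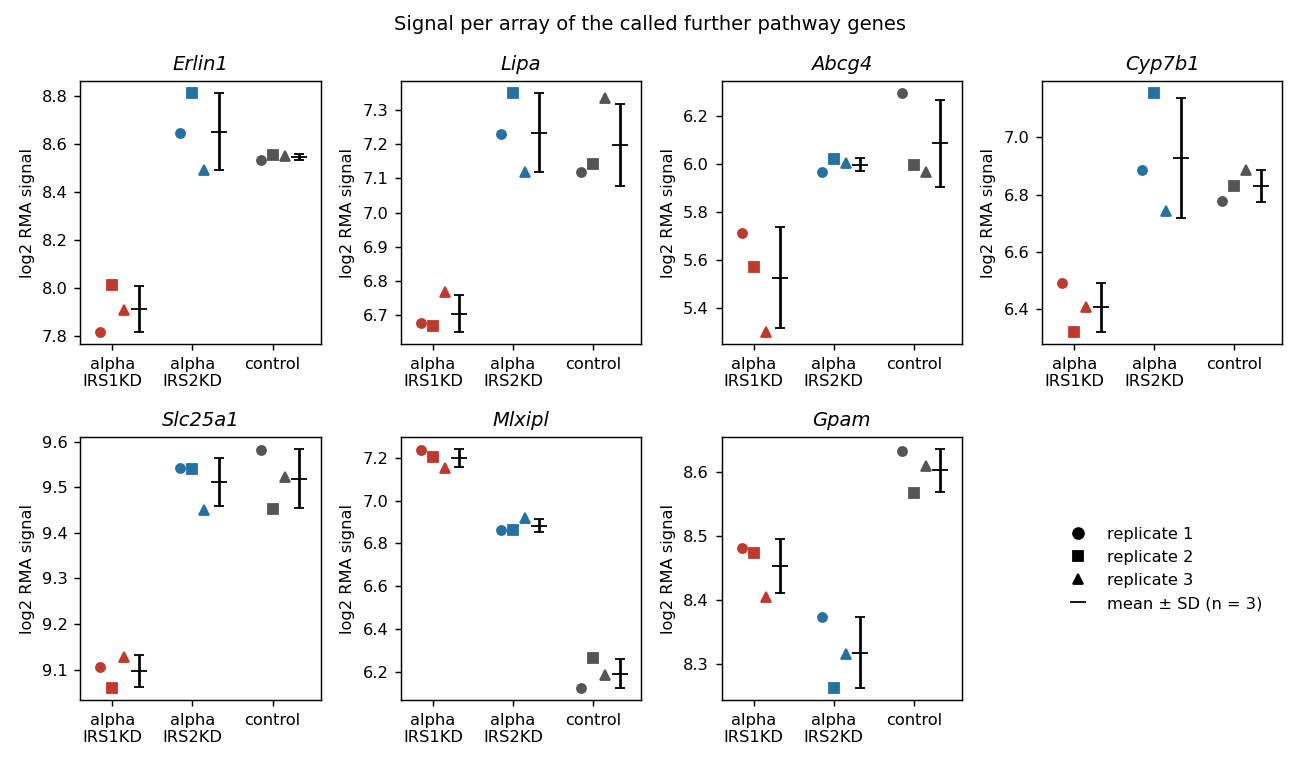
Log2 RMA signal (y axis, scaled for each gene and not starting at 0) on each array of the 7 further pathway genes called in at least 1 comparison, with alphaIRS1KD in red, alphaIRS2KD in blue and control in grey, and the mean ± SD of 3 arrays beside each group. Erlin1, Lipa, Cyp7b1, Slc25a1 and Abcg4 are low on the 3 alphaIRS1KD arrays, Mlxipl is stepped from alphaIRS1KD through alphaIRS2KD to control, and Gpam is lowest in alphaIRS2KD.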

How the data were processed

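RNA of alphaIRS1KD, alphaIRS2KD and control alpha TC6 cells was hybridised, 3 samples per group, to 9 Mouse Gene 2.0 ST arrays from Affymetrix. The authors ran RMA on the arrays (its version is not given in the sources used here). The deposited values are therefore log2 signals per transcript, after background correction and normalization across arrays, and they were used unchanged. RMA pulls the arrays to 1 distribution, so a shift of all genes cannot be seen. Arrays have no read depth, and precision is limited by how many there are.

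Of the 41345 probes listed, 23521 have 1 gene symbol in the platform annotation, 1820 have several and 16004 have none. Probes with 1 symbol were kept and the one with the highest mean represented its gene, which gave 22180 genes. Groups were compared with limma 3.58.1 in R 4.3.3, in a single fit of the 3 groups, and p-values were adjusted by Benjamini-Hochberg across all genes for each of 3 comparisons. Calls were made at an adjusted p under 0.05, SEs are those of limma, intervals are 95% and not adjusted, and SDs are between arrays. The fit was tested on simulated data.

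The members and lists were chosen with earlier results of these data known. All members are accounted for, and full values are given for those called in at least 1 comparison, for uncalled members of the same step, and for called genes of the further list. Same-numbered arrays correlated between -0.083 and 0.017 in their deviations, so replicate numbers were not taken as pairs. Alternatives covered the threshold, the Student test of the methods, a replicate block, the prior, array weights, normalization, probe choice, a filter on dim genes, the groups fitted and each array left out. Sequences and motif counts are from RefSeq promoter windows of GRCm38.p6.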

Additional observations from a re-analysis of the deposited data

Results flagged for a closer look

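Effects of the 2 knockdowns against control differed by the direct limma test between the lines for 9 genes. Of the 34 lipid genes 2 were higher and 2 lower in alphaIRS1KD. Among the 45 further genes 1 was higher and 4 were lower, against 1.71% and 2.42% of all genes. The call was lost in 13 of 22 alternatives for Mylip and for Sqle, 11 for Abca1, 9 for Cyp7b1 and 5 for Mlxipl. It was lost in 2 for Npc2, Slc25a1 and Lipa, and in 1 for Erlin1. Mylip had opposite signs, 0.13 in alphaIRS1KD and -0.18 in alphaIRS2KD against control, a difference of 0.312 on the log2 scale (adjusted p = 0.027), with the control arrays between the lines. Abca1 had 0.41 in alphaIRS1KD and 0.19 in alphaIRS2KD (difference 0.223, adjusted p = 0.026), and its change in alphaIRS2KD against control was not called (adjusted p = 0.10). Mlxipl was called higher in both lines, by 1.01 and 0.69 (difference 0.316, adjusted p = 0.012). Sqle had -0.38 in alphaIRS1KD and -0.10 in alphaIRS2KD (difference -0.276, adjusted p = 0.035), Npc2 had -0.43 and -0.05 (-0.381, adjusted p = 0.0052), and Slc25a1 had -0.42 and -0.01 (-0.414, adjusted p = 0.0034). Erlin1 had -0.63 in alphaIRS1KD and 0.10 in alphaIRS2KD (difference -0.738, adjusted p = 0.0015), Lipa had -0.49 and 0.03 (-0.528, adjusted p = 0.0065), and Cyp7b1 had -0.43 and 0.10 (-0.523, adjusted p = 0.022).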

How the results depend on the processing

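In alphaIRS1KD against control cells the 4 higher lipid genes became 2 at an adjusted p under 0.01 and the 2 lower became 4 at an adjusted p under 0.1. Requiring at least 1.5-fold left 0 in each direction there and in alphaIRS1KD against alphaIRS2KD cells. Lower genes numbered 8 with the unadjusted Student test of the methods, 4 with the trend and robust prior and 4 without the dimmest 30 percent of genes. In alphaIRS2KD against control cells, where 0 were called, higher genes numbered 5 with the unadjusted Student test, 2 with the trend and robust prior (Abca1 and Acly), 1 after quantile normalization (Srebf1) and 1 with the filter on dim genes (Abca1). Lower genes numbered 2 with the unadjusted Student test and 1, Ebp, at an adjusted p under 0.1, with the trend and robust prior, after quantile normalization and with the filter. Between the knockdown lines the 2 higher genes became 0 at an adjusted p under 0.01, with the replicate block, after median centring and with only those groups in the fit, and 1 (Abca1) with the adjusted Student test. The 2 lower genes became 1, Npc2, under the same 4 settings, 4 with the unadjusted and 0 with the adjusted Student test. The replicate block changed no other count by more than 1.5 times.

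With 1 array left out, higher genes in alphaIRS1KD against control numbered 2 to 4 (2, Abca1 and Srebf1, without control replicate 3 or any 1 alphaIRS1KD array) and lower genes 2 to 3. In alphaIRS2KD against control both counts stayed at 0. Between the lines higher genes numbered 0 to 2 (0 without control replicate 2, alphaIRS2KD replicate 2 or any 1 alphaIRS1KD array) and lower genes 1 to 3 (1, Npc2, without control replicate 2 or 3, alphaIRS2KD replicate 1 or 2, or any 1 alphaIRS1KD array). In the comparisons where a gene was called, its sign was the same under all 22 alternatives. Alternatives that alter only the threshold or the test leave the log2 change as it was, so they could not reverse a sign. Genes that were not called were not followed in this way. Srebf1, Abca1, Sqle and Npc2 in alphaIRS1KD against control lost their call only where 1.5-fold was required. The median of the 34 genes was -0.06 to -0.013 in alphaIRS1KD and 0.003 to 0.051 in alphaIRS2KD against control, and -0.124 to -0.074 between the lines.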

Other observations

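Hsd17b7 and Acaca carried 1 identical deposited value on all 3 control arrays, which was so for 2.07% of all genes in control cells, 1.90% in alphaIRS1KD and 1.40% in alphaIRS2KD. An SD of 0 in those genes does not show that the arrays measured them without error.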
